A study of Homo sapiens with 3 samples.

Results

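The genes described are 36 immediate-early and MAPK feedback genes, measured in KYSE180 cells, a human oesophageal squamous cell carcinoma line, after the long non-coding RNA HOTAIR was overexpressed or targeted. The members were taken by gene symbol from a list chosen with earlier results of these data known. Of the 36 genes, 35 had at least 1 probe set with a single gene symbol, 105 probe sets in all out of 49293 on the array, and the expression of EGR2 was not analysed here. Of 10917 genes whose mean level reached the filter (a log2 signal of 5.28, the median of all probe set means), 29 were members. MAFF, EGR3, NR4A2, NR4A3, DUSP2 and SPRY4 lay below it.

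The 3 groups had 1 array each. Control KYSE180 cells carry no further label. The series describes a negative-control siRNA, but the control sample's own labels name neither it nor a reagent. The vector group received the LZRS_HOTAIR vector with Polyfect, and the siRNA group a mixture of Stealth siRNAs against HOTAIR (100 pmol) with Lipofectamine2000, both read 48 h after transfection. The arms therefore differed in reagent and type of nucleic acid as well as in the direction of the HOTAIR manipulation, and the effects of these cannot be told apart. The source name of the siRNA sample refers to a HOTAIR cell line, while its title names KYSE180, which was used here. HOTAIR itself had 0 named probe sets, so neither manipulation could be checked on its target.

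Each group had a single array, so nothing below has a check by replicates, and no test was made. The only measurable spread was that between probe sets of a gene on the same arrays, which does not measure the spread between cultures. Over the 15 members with several probe sets above the filter, this spread (pooled SD, log2) came to 0.30 against control in the vector arm, 0.28 in the siRNA arm and 0.18 between the arms. The control array stood apart, with 1886 of 10917 genes past 2-fold against the vector array and 1825 against the siRNA array, but 391 between the arms. Each result against control rests on that array, and vector minus siRNA is the comparison without it. Marker levels matched the labelled epithelial cell type, since all 7 measured squamous epithelial markers lay above the filter, with lowest log2 signals of 8.82 in control, 9.22 in the vector arm and 9.74 in the siRNA arm. None of 6 fibroblast and 4 endothelial markers did, and of 5 leukocyte markers only CD68, which is not restricted to leukocytes, did.

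Immediate-early genes are switched on by growth factors and stress without new protein synthesis, largely through ERK, JNK and p38 kinases acting on factors such as SRF with its ternary complex partners. Many encode transcription factors of the AP-1, EGR, KLF and NR4A families, whose RNAs are short-lived. A further set, the DUSP phosphatases and Sprouty proteins, is induced by the same kinases and dampens them, while the ZFP36 proteins promote decay of AU-rich RNAs. In squamous epithelium AP-1 and KLF4 are known regulators of differentiation.

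Promoters are shown for members that the results turn on: EGR1 and SRF, lower than control in both arms and holding serum response element cores, KLF2, the member furthest below control, and KLF4, 2-fold apart between the arms. Each line gives the 250 bases before the annotated start, 5′ to 3′, from RefSeq (GRCh38.p14), with matches to the CArG core of the serum response element in capitals. The other motifs searched had no match in these 4 windows.
EGR1, chr5:138465229-138465478, strand +: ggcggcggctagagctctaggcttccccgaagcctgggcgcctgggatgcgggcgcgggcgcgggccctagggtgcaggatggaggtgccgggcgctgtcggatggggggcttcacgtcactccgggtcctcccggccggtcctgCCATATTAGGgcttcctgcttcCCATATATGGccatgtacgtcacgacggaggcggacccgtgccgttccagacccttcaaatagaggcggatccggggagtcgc
SRF, chr6:43171019-43171268, strand +: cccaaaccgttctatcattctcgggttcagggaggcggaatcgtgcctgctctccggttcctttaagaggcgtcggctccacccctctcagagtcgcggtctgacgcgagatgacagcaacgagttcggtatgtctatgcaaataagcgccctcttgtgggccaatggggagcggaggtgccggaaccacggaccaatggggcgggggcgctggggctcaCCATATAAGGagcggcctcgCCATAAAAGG
KLF2, chr19:16324576-16324825, strand +: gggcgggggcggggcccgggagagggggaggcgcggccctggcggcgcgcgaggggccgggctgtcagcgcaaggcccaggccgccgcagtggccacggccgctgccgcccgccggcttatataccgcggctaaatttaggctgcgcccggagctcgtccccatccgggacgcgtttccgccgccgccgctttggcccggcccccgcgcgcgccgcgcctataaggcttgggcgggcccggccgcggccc
KLF4, chr9:107489770-107490019, strand -: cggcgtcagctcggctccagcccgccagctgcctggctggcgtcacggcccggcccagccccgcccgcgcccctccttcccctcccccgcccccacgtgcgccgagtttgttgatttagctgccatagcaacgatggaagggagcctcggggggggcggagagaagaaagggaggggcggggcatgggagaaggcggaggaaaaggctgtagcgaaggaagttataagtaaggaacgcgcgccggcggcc

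Promoter entries were found for 27 of the 36 members. Both strands were searched for the CArG core, the cAMP response element TGACGTCA, the AP-1 site TGANTCA and the EGR site GCGTGGGCG, and no motif contains another. The CArG core was in 2 of 27 member windows, EGR1 and SRF with 2 matches each, against 1.14% of 27305 promoter windows of equal length. The cAMP response element was in 3 of 27, those of DUSP1, JUND and MAFF, against 1.77%. AP-1 sites were in 0 of 27 member windows against 6.60% of all windows, and EGR sites in 0 of 27 against 0.71%. The TATA box TATAAA, searched on the gene's strand only, was in 4 of 27, those of FOS, FOSB, JUNB and DUSP1, against 7.17%. A match is a description of the letters only.

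The members are short genes. The 29 above the filter had a median length of 5.27 kb, from 1.35 kb (IER3) to 55.4 kb (ATF3), against 28.7 kb over the 10912 filtered genes with a length. Of the 29, 23 were among the 2728 shortest of those genes, up to 11.5 kb. Length moved with the comparisons against control over all genes. Among these 2728 shortest genes 4.51% exceeded control by 2-fold or more in the vector arm and 3.52% in the siRNA arm, against 25.8% and 27.3% of the 2728 longest. The median log2 differences from control were -0.44 and -0.43 for the shortest genes, and 0.24 and 0.35 for the longest. In vector minus siRNA the same classes had medians of 0.01 and -0.03. The part of length in the members' values was not tested.

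**Figure D1:**
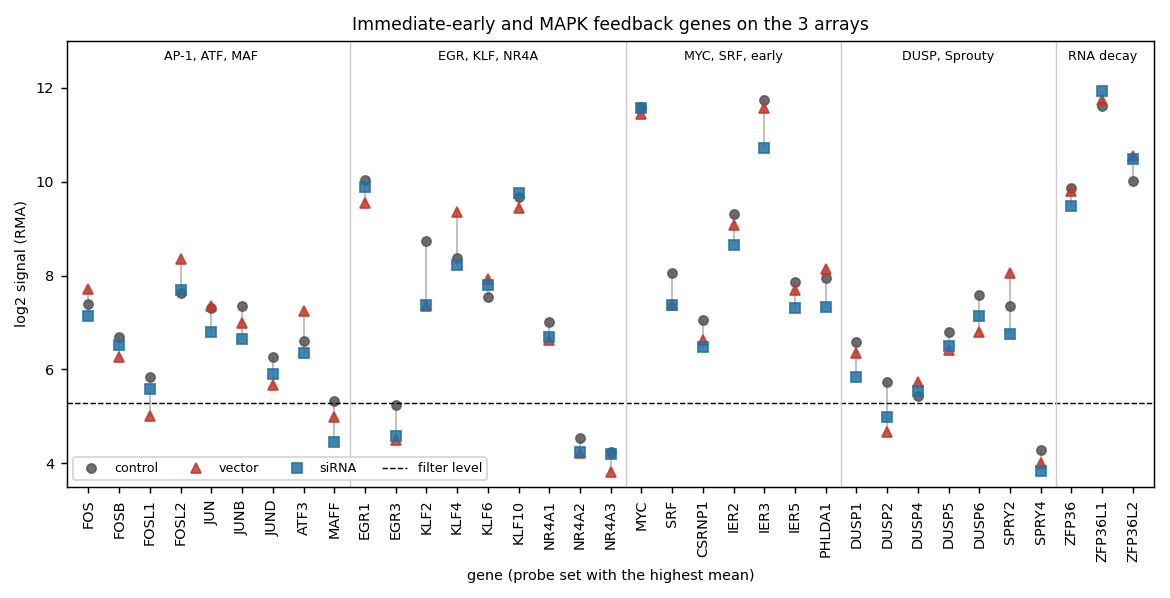
Log2 signal (vertical axis) of the 35 measured members (horizontal axis, grouped by role) on the control (circle), vector (triangle) and siRNA (square) arrays, each for the probe set with the highest mean; grey lines join the 3 values and the dashed line is the filter at 5.28. KLF2 stands higher in control than in both arms, and KLF4 and SPRY2 are highest in vector cells.

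The first comparison asked how HOTAIR vector cells differed from control cells. KLF2, a zinc finger transcription factor known in quiescence, was the only member above the filter past 2-fold, 2.63-fold lower (log2 -1.39). No filtered member (0 of 29) exceeded control by 2-fold, against 15.2% of all genes, and 1 was lower, against 2.05%. At 1.5-fold, 4 were higher (all genes 22.9%) and 5 lower (19.4%). The members' median was -0.18, equal to the median of all genes kept (-0.18), and 18 of 29 lay below 0, against 59.2% of all genes. The share lower was thus near that of all genes, while no member was among the many genes 2-fold higher. Among the 2728 shortest genes, which include 23 of the 29, only 4.51% were 2-fold higher and 3.04% lower, with a median of -0.44. The part of length was not tested. The 1.5-fold split moved with the scaling, for members and all genes alike: after repeated quantile normalization 1 member was higher (all genes 19.9%) and 7 lower (29.4%), and after centring on the median of all genes 5 were higher (27.1%) and 3 lower (7.75%).

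The second comparison asked the same of cells given siRNAs against HOTAIR. KLF2 was again lower, 2.57-fold (log2 -1.36), and IER3, an early gene known in cell survival, was 2.03-fold lower (-1.02). In all, 0 of 29 members exceeded control by 2-fold (all genes 14.9%) and 2 lay 2-fold below it (1.85%). At 1.5-fold, 0 were higher (22.8%) and 9 lower (18.0%), namely JUNB, KLF2, SRF, CSRNP1, IER2, IER3, PHLDA1, DUSP1 and SPRY2. PHLDA1 was lower on its brightest probe set only, and the mean over its 4 probe sets was 0.14. The members' median was -0.32 against -0.17 for all genes, and 23 of 29 lay below 0 against 58.8%. Among the 2728 shortest genes, which include 23 of the members, the median was -0.43. Of these genes 3.52% were 2-fold higher and 3.96% lower. The part of length was not tested. After repeated quantile normalization 0 members were 1.5-fold higher (all genes 21.0%) and 12 lower (25.3%), and after centring 1 was higher (26.8%) and 2 lower (8.24%). Both comparisons share the control array, so their likeness is not a result.

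The third comparison set the vector against the siRNA arm. SPRY2, an inhibitor of receptor tyrosine kinase signalling, was 2.43-fold higher in vector cells (log2 1.28), and KLF4 was 2.20-fold higher (1.14). In RNA from whole cultures, fewer expressing cells and less RNA per cell cannot be told apart. SPRY2 and KLF4 were the 2 members of 29 past 2-fold higher (all genes 1.73%), and 0 were lower (1.85%). At 1.5-fold, 6 were higher (4.74%), namely SPRY2, KLF4, ATF3, IER3, PHLDA1 and FOSL2, and 0 lower (4.95%). The median was 0.16 against 0.01 for all genes, and 12 of 29 lay below 0 against 47.9%. At 1.5-fold, repeated quantile normalization gave 6 members higher (all genes 4.07%) and 0 lower (5.38%), and cyclic loess 5 higher (4.15%) and 0 lower (5.56%). The mean over probe sets gave 4 higher and 0 lower, with no share of all genes computed.

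**Figure D2:**
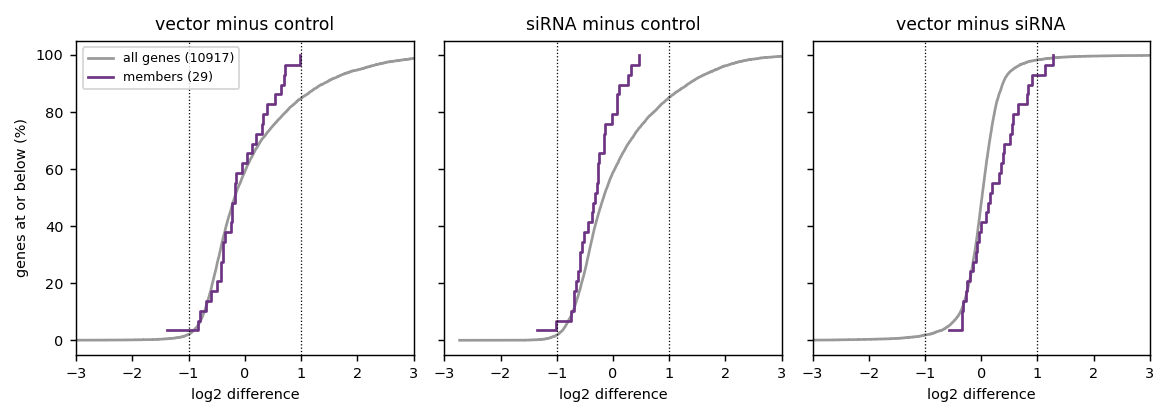
Cumulative percentage of genes (vertical axis) at or below each log2 difference (horizontal axis, cut at 3 on each side) for the 29 members above the filter and for all 10917 genes, one panel per comparison, with dotted lines at 2-fold. In the first 2 panels the member line ends before the 2-fold line on the right while the line of all genes goes on, and in vector minus siRNA the upper part of the member line lies to the right.

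By order of the arrays, the control was highest of the 3 for 17 of 29 members (all genes 53.5%) and lowest for 5, FOSL2, KLF6, DUSP4, ZFP36L1 and ZFP36L2 (all genes 35.5%). The siRNA array was lowest for 13 (all genes 32.5%), among them FOS, JUN, JUNB, ATF3, KLF4, IER2, IER3, IER5, DUSP1 and SPRY2. Near ties are included in these orders, since MYC differed by at most 0.15 over the 3 arrays. FOSL2 in siRNA cells exceeded control by 0.07 on the brightest probe set, but by -0.25 with the mean over its 5 probe sets.

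Among AP-1 genes, which encode the FOS and JUN subunits and their ATF and MAF relatives, 8 of 9 lay above the filter. On the probe sets used, 0 of these 8 were past 2-fold in any comparison. FOS had log2 signals of 7.39 (control), 7.71 (vector) and 7.14 (siRNA), and sets of 3 signals below keep this order. Its 4 probe sets were all lower in siRNA than in control cells (-0.41 to -0.25) but split in vector cells (-0.44 to 0.40), so the vector direction depended on the probe set. JUN, the main partner of FOS, had 7.32, 7.35 and 6.80. All 4 JUN probe sets lay below control in siRNA cells (-0.53 to -0.44, SD 0.05) and above siRNA in vector cells (0.15 to 0.55). Vector and control could not be ordered for JUN, since the sign turned after repeated quantile normalization.

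FOSL2, an AP-1 subunit of epithelia, had 7.63 (control), 8.35 (vector) and 7.70 (siRNA). Its 5 probe sets were all higher in vector than in siRNA cells (0.17 to 0.77), a difference of 0.65 on the brightest, or 1.57-fold. The excess of vector cells over control (0.72) was 0.27 with the mean over probe sets. In siRNA cells 4 of the 5 FOSL2 probe sets lay below control (-0.51 to 0.07, mean -0.25), the brightest being 0.07 above it. FOSL1, known as FRA-1, went the other way from FOSL2 in vector cells, with 5.84, 5.02 and 5.58. All 6 FOSL1 probe sets lay below control in both arms, from -1.15 to -0.19 in vector and from -1.67 to -0.15 in siRNA cells, and only 1 of the 6 was above the filter. Between the arms they disagreed (-0.56 to 0.52).

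JUNB was 7.34 (control), 6.99 (vector) and 6.64 (siRNA) on 1 probe set, which ends in _x_at and is open to cross-hybridisation. JUND, also on 1 such probe set, was 6.26, 5.66 and 5.91, with differences of -0.60 and -0.35 from control. FOSB was 6.69, 6.26 and 6.53 on a probe set that also ends in _x_at. The second FOSB probe set, below the filter, had 4.84, 4.46 and 4.33, with the arms in the other order. ATF3, a stress-induced repressor, had 6.61, 7.25 and 6.34, and was 1.88-fold higher in vector than in siRNA cells (0.91). That value rests on 1 of 7 ATF3 probe sets, since the other 6 were below the filter, and the mean over all 7 was 0.21. Its excess over control (0.64) was likewise -0.04 over all 7. MAFF, below the filter, had 5.32, 4.99 and 4.46.

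EGR1 was lower than control in both arms, although on its brightest probe set the siRNA difference turned to 0.01 after centring. EGR1, the zinc finger factor whose promoter with its CArG cores is shown above, had log2 signals of 10.04 (control), 9.54 (vector) and 9.88 (siRNA) on the brightest probe set. All 6 EGR1 probe sets were above the filter and gave the same order, control above siRNA above vector. Their differences were -0.98 to -0.38 for vector minus control (mean -0.77, SD 0.26), -0.63 to -0.16 for siRNA minus control (mean -0.45, SD 0.18) and -0.43 to -0.07 for vector minus siRNA (mean -0.32, SD 0.13). The brightest probe set had among the smaller differences. EGR3 lay below the filter, at 5.23, 4.51 and 4.59, and 3 of its 4 probe sets were lower than control in siRNA cells and all 4 in vector cells.

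Of the KLF genes, KLF2 had 8.73 (control), 7.34 (vector) and 7.37 (siRNA). Its second probe set had 6.63, 5.84 and 5.93, so the difference was -0.79 and -0.70 there, and KLF2 missed 2-fold when probe sets ending in _x_at or _s_at were left out. Between the arms KLF2 was within 0.10 on both probe sets. KLF4, a factor of squamous differentiation, had 8.37 (control), 9.36 (vector) and 8.22 (siRNA). Vector cells alone stood apart, by 0.99 from control and 1.14 from siRNA, with 0.55 and 0.90 on the other probe set. After centring the difference from control was 1.17, past 2-fold. KLF6 was higher than control in both arms on its 2 probe sets above the filter (0.39 and 0.63 in vector, 0.26 and 0.33 in siRNA cells), while the mean over all 5 was 0.11 and -0.01. KLF10, a TGF-beta-induced early gene, had 9.67, 9.44 and 9.75. Its 2 probe sets, both ending in _s_at, were lower in vector cells. The brightest had -0.24 against control (SD over probe sets 0.03) and -0.31 against siRNA. After centring the difference of vector cells from control was only -0.05.

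NR4A1, an orphan nuclear receptor, had 7.02 (control), 6.62 (vector) and 6.70 (siRNA), and 6 of 7 probe sets lay below control in each arm. Its differences on the brightest probe set were -0.40 and -0.32, or -0.21 and -0.15 after centring. The means over all 7 probe sets were -0.32 (SD 0.19) in vector and -0.25 (SD 0.24) in siRNA cells. The arms differed by -0.07 on the brightest probe set. NR4A2 (4.53, 4.22 and 4.24) and NR4A3 (4.23, 3.82 and 4.20) lay below the filter, where RMA compresses differences, and their probe sets disagreed in sign in vector minus control.

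**Figure D3:**
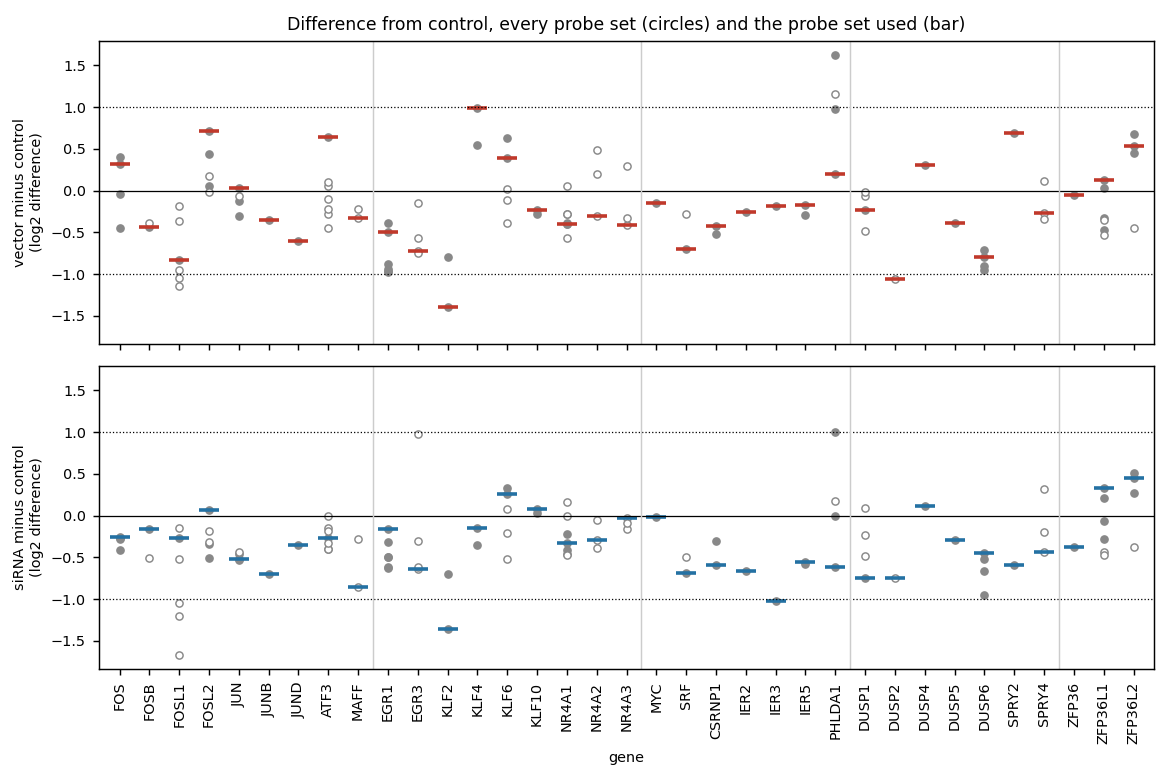
Log2 difference from control (vertical axes) in vector (upper panel) and siRNA cells (lower panel) for every probe set of each measured member (horizontal axis); filled circles are probe sets above the filter, open circles those below it, bars the probe set used and dotted lines 2-fold. All EGR1, DUSP6 and FOSL1 circles lie below 0 in both panels, while those of PHLDA1 spread from 0.19 to 1.63 in the upper panel and from -0.61 to 1.00 in the lower.

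SRF, the factor that binds CArG boxes, had 8.06 (control), 7.36 (vector) and 7.37 (siRNA). Its differences from control were -0.70 and -0.69, with -0.01 between the arms, and its second probe set, below the filter, had -0.28 and -0.49 against control. MYC, the growth regulator, had 11.58, 11.43 and 11.57, and its sign against control changed with the scaling. CSRNP1, a nuclear protein of the early response, had 7.06, 6.63 and 6.47 and was below control on both of its probe sets in both arms.

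The IER genes, which encode small early response proteins, were lowest in siRNA cells. IER3 had 11.74 (control), 11.56 (vector) and 10.72 (siRNA), on 1 probe set (ending in _s_at), with vector close to control (-0.18, or 0.00 after centring). Its siRNA minus control value of -1.02 became -0.96 after cyclic loess and -0.85 after centring, short of 2-fold. IER2 had 9.32, 9.07 and 8.66 and IER5 7.86, 7.69 and 7.30, the same order. The 2 IER5 probe sets differed from control by -0.58 and -0.56 in siRNA cells. PHLDA1, known as an ERK output gene, had 7.95, 8.14 and 7.33 on the brightest probe set, but a second of nearly the same mean had 6.88, 8.51 and 7.88. Over its 4 probe sets the mean difference from control was 0.99 in vector and 0.14 in siRNA cells, so PHLDA1 had no settled size there. In siRNA cells its probe sets also disagreed in sign (-0.61 to 1.00). Between the arms all 4 probe sets were higher in vector cells (0.63 to 0.99, mean 0.85, SD 0.17).

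Of 5 feedback genes above the filter, 3 lay below control in vector cells (all genes 59.2%) and 4 in siRNA cells (58.8%). DUSP6, the ERK-selective cytoplasmic phosphatase, had 7.59 (control), 6.80 (vector) and 7.14 (siRNA). All 4 DUSP6 probe sets were above the filter and lower than control, at -0.96 to -0.71 in vector (mean -0.84, SD 0.11) and -0.95 to -0.45 in siRNA cells (mean -0.65, SD 0.22). SPRY2 showed another order on its 1 probe set, with 7.35 (control), 8.04 (vector) and 6.76 (siRNA), so control lay between the arms (0.69 and -0.59 against control). SPRY2 and DUSP6, both known ERK-induced inhibitors, thus differed in direction between the arms on the probe sets used, at 1.28 and -0.34. The 4 DUSP6 probe sets ran from -0.34 to -0.0043 between the arms (mean -0.20, SD 0.14). The DUSP6 difference was thus small, near the members' spread between probe sets (0.18).

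DUSP1, the nuclear phosphatase of p38 and JNK, had 6.59, 6.35 and 5.85, and was 1.67-fold lower than control in siRNA cells on the probe set above the filter (1 of 4), with a mean of -0.34 over all 4. DUSP5, the nuclear ERK phosphatase, had 6.79, 6.41 and 6.51. DUSP4 had 5.43, 5.73 and 5.54, close to the filter, and was the only DUSP gene higher than control in both arms. DUSP2, below the filter, had 5.73, 4.67 and 4.98, which is past 2-fold in vector cells (-1.06) on its 1 probe set, and SPRY4, also below it, 4.28, 4.01 and 3.84.

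Of the RNA decay factors, ZFP36 (tristetraprolin) had 9.86 (control), 9.81 (vector) and 9.48 (siRNA). ZFP36L2 was higher than control in both arms on each of its 3 probe sets above the filter, with 10.02, 10.56 and 10.48 on the brightest. ZFP36L1 had 11.61, 11.74 and 11.94, but 4 of its 6 probe sets lay below control in each arm, so its direction depended on the probe set.

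**Figure D4:**
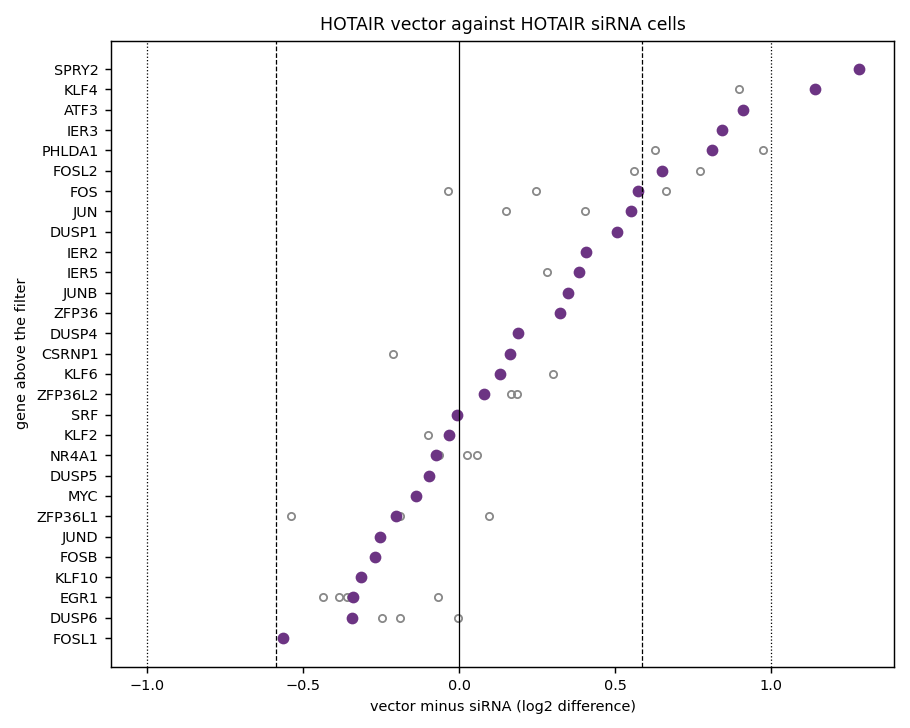
Vector minus siRNA log2 difference (horizontal axis) for the 29 members above the filter (vertical axis, in order of the difference); filled points are the probe set used, open points other probe sets above the filter, dashed lines 1.5-fold and dotted lines 2-fold. SPRY2 and KLF4 lie past 2-fold, 6 members past 1.5-fold on the right and 0 on the left.

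Other genes of the pathway were taken from 7 lists chosen with earlier results of these data known. The all-gene shares to read their 2-fold counts against are 15.2% higher and 2.05% lower in vector cells, and 14.9% higher and 1.85% lower in siRNA cells, both against control. Of 14 ERK cascade genes above the filter, 3 exceeded control by 2-fold in vector cells and 0 were lower, and 4 higher and 1 lower in siRNA cells. The lower gene was HRAS (9.45, 8.62 and 8.24), and the RAS activator SOS1 was higher (7.44, 9.21 and 9.19), although with the mean over its 4 probe sets it differed by 0.92 in siRNA cells. Of 13 JNK and p38 genes, 3 were higher in vector and 1 in siRNA cells, with 0 lower, MAP3K5 in both (1.28 and 1.43). Among 8 partners of SRF and CREB, 2 were higher in vector and 3 in siRNA cells and 0 lower. The ternary complex factor ELK3 was higher in siRNA cells alone (0.96 and 1.52, or 0.41 and 1.06 with the mean over 2 probe sets). The counts in these lists rest on the brightest probe set. With the mean over probe sets, ATF2 went from 2.34 and 2.20 to 0.58 and 0.40. In siRNA cells MRTFB went from 1.10 to 0.04 and PTPN11 from 1.08 to 0.31. CREB1 (1.68) and RPS6KA3 (1.72) stayed past 2-fold in vector cells.

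Among 12 other feedback genes, 1 was higher in vector cells (all genes 15.2%), the EGFR inhibitor gene ERRFI1 (1.02), and 1 in siRNA cells (14.9%), SPRED1 (1.11), with 0 lower. Of 9 other ERK output genes, 1 was higher in vector cells, ETV1, and 2 in siRNA cells, ETV1 and HMGA2 (1.11, or -0.01 with the mean over 6 probe sets), with 0 lower. ETV1 had 3.58, 6.34 and 5.95, so its control signal lay below the filter, it passed through the arms alone, and no fold is given. Of 18 other early response genes, 0 were 2-fold higher than control and 3 were lower in vector cells (all genes 2.05%), CCN1 (-1.17), the endothelin gene EDN1 (-1.21) and the chemokine gene CXCL1 (-1.37), with 0 in siRNA cells. EDN1 (-1.19) and CXCL1 (-1.60) were also lower in vector than in siRNA cells, and IRF1, an interferon-responsive factor, was higher (1.28, or 0.74 with the mean over 4 probe sets). Of 10 AP-1 target genes, 3 lay 2-fold below control in vector cells, MMP1, MMP10 and MMP13, and 0 above (all genes 2.05% and 15.2%). In siRNA cells 1 lay below control, MMP1 (-1.48), and 0 above (1.85% and 14.9%). The same 3 genes were 2-fold lower in the vector than in the siRNA arm, and 0 were higher (1.85% and 1.73%). Their vector signals (3.49, 3.74 and 3.80) lay around the vector array's lower quartile (3.58), and no fold is given. On the probe sets used, none of the 8 AP-1 members above the filter was 2-fold apart in any comparison. FOSL1 probe sets below the filter went further from control. In vector and siRNA cells they had -1.15 and -1.67, -1.05 and -1.05, and -0.95 and -1.20. The remaining ones had -0.36 and -0.51, and -0.19 and -0.15. Any part of AP-1 in the values of these target genes was not tested.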

How the data were processed

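Total RNA from 3 cultures was labelled with biotin by a 3' IVT kit, per the labels' protocols, and hybridised to 1 array per group. The authors used RMA to make the deposited log2 signals of probe sets, per the submitters' processing notes. The log2 scale was read from the values. For RMA, version and settings are not given in the sources available.

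Symbols came from the platform annotation (44988 probe sets with 1 symbol). A gene took its single-symbol probe set with the highest mean, and was kept at or above the 50th percentile of probe set means. Log2 differences between arrays were counted at 2-fold and 1.5-fold. All members are named. Of each other list the genes past 2-fold with the widest range were eligible to be named. The members and lists were chosen with earlier results of these data known. The 2-fold counting was tested on simulated gene values, and the quantile normalization was checked to give equal distributions. The other steps were not tested in this way. Promoters were those of RefSeq on GRCh38.p14, since the files give no coordinates. Precision is limited by the number of arrays. Software was Python 3.11.15, numpy 2.4.6, pandas 2.3.3, statsmodels 0.14.6 (loess) and matplotlib 3.10.9.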

Additional observations from a re-analysis of the deposited data

How the results depend on the processing

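With 1 array per group no array could be left out. No paired analysis was possible because each group has 1 array. Alternatives were other filters, probe set rules, scalings and a lower threshold. For vector minus control, the members at least 2-fold higher (0) became 4 at 1.5-fold and 1 after centring on the median of all genes kept, and those lower (1) became 5 at 1.5-fold, 2 with no filter and 0 without probe sets ending in _x_at or _s_at. The counts over all genes moved too. Of 10917 genes, 1662 were 2-fold higher, 2499 at 1.5-fold and 1978 after centring. Those lower were 224, then 2117 at 1.5-fold, 263 of 18132 with no filter and 192 of 9245 without those probe sets. The members' median (-0.18) was -0.25 with no filter, 0.032 without those probe sets, -0.37 after repeated quantile normalization and 0.0041 after centring, so its sign is not settled. For siRNA minus control, the members lower (2) became 9 at 1.5-fold, 0 without those probe sets and 1 after cyclic loess or centring. Over all genes, those lower (202) became 1964 at 1.5-fold, 199 of 9245 without those probe sets, 155 after cyclic loess and 72 after centring. The members' median (-0.32) was -0.16 with a filter at the 75th percentile, -0.42 after repeated quantile normalization, -0.22 after cyclic loess and -0.15 after centring. For vector minus siRNA, the members higher (2) became 6 at 1.5-fold and 1 with the filter at the 75th percentile, which left out SPRY2. Over all genes, those higher (189) became 517 at 1.5-fold and 80 of 6451 with that filter. The members' median (0.16) was 0.13 with no filter, 0.12 with the mean over probe sets, 0.11 after repeated quantile normalization and 0.11 after cyclic loess. Without those probe sets 21 members were kept in place of 29. The cause of the other shifts was not tested. Against control, the sign of 6 of 29 members turned under at least 1 scaling in vector cells and of 6 in siRNA cells. MYC, IER3, IER5 and ZFP36 (vector) and FOSB, EGR1 and KLF4 (siRNA) turned under centring alone, which adds 1 constant (0.18 or 0.17) to every gene, so their differences were smaller than that shift. JUN and PHLDA1 (vector) and FOSL2 and KLF10 (siRNA) turned under repeated quantile normalization, and MYC (siRNA) under each of the 3 scalings. Under the other probe set rules the sign turned for JUN, ATF3 and ZFP36L1 in vector minus control, FOSL2, KLF6, PHLDA1 and ZFP36L1 in siRNA minus control, and FOSL1, NR4A1, SRF, CSRNP1 and ZFP36L1 between the arms. No member turned its sign in a comparison where it was past 2-fold, under the alternatives run. That outcome was largely fixed beforehand and is no support for these values. Centring adds at most 0.18 and the filters change no value, so neither could turn a 2-fold difference. SPRY2 and IER3 have 1 probe set each, so the probe set rules could not turn them.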
